A study of Mus musculus with 20 samples.

Results

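The 8 genes described here cover the route from ornithine to the polyamines and back in mouse lumbar dorsal root ganglia (DRG), which hold the cell bodies of the sensory neurons of the leg. They are Odc1, Amd1, Srm, Sms, Sat1, Smox, Oaz1 and Azin1, taken by gene symbol from a table of exonic read counts of 78258 genes. Of these 8, 8 were found, each as 1 row, and 8 passed the filter on low counts that left 28564 genes for testing. RNA came from 5 conditional knockout (cKO) and 5 control mice, all male, and the contralateral and ipsilateral ganglia of a mouse gave a library each, so that there were 4 groups of 5 libraries. The cKO mice were Ahr fl/fl Thy1CRE-ERT2/EYFP: Ahr, which encodes the aryl hydrocarbon receptor (AhR, a ligand-activated transcription factor), is floxed on both alleles, and the tamoxifen-dependent Cre recombinase is driven by the Thy1 promoter, which is used to reach neurons rather than the glia and immune cells that the ganglion also holds. The controls were Ahr f/f or f/+ and are not listed with Cre. Every mouse of both genotypes received tamoxifen at 100 mg/kg i.p. on 5 days from 17 weeks of age. At 4 weeks after tamoxifen the sciatic nerve was cut on the ipsilateral side, and 1 day later lumbar ganglia 4 to 6 of both sides were collected. The treatment label says spinal cord injury instead, and the protocol text was followed. The contralateral ganglia are the uninjured side of the same operated mice, not ganglia of unoperated mice.

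Polyamines (putrescine, spermidine and spermine) are small, positively charged molecules that bind RNA and DNA and are needed for growth and protein synthesis. Ornithine decarboxylase (ODC) turns ornithine, which cells make from arginine and other amino acids, into putrescine in the rate-limiting step. The level of ODC protein is held down by antizyme, which binds it and delivers it to the proteasome. In sensory neurons, polyamine synthesis is known for its part in the cyclic AMP dependent increase of axon growth.

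The promoter sequences below are shown for 4 members because they set the member with the largest injury response (Odc1), the member called in cKO mice alone (Oaz1), a member with a small called increase (Sat1) and a member with no called change (Amd1) beside the letters that AhR is known to recognise. They are from RefSeq on build GRCm38.p6, 5′ to 3′ on the gene's strand, and stop before annotated transcript sequence. Capitals mark GCGTG, the core of the AhR response element, or its reverse complement CACGC.
Odc1, chr12:17544623-17544793, plus strand: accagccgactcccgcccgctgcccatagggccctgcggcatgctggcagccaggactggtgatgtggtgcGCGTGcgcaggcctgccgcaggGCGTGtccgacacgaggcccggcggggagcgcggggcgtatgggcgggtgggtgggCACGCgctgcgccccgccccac
Oaz1, chr10:80826406-80826655, plus strand: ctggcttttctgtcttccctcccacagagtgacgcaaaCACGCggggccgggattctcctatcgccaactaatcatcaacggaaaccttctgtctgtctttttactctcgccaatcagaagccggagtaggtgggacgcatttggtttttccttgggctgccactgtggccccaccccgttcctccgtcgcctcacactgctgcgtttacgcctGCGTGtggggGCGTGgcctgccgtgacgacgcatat
Sat1, chrX:155216450-155216699, minus strand: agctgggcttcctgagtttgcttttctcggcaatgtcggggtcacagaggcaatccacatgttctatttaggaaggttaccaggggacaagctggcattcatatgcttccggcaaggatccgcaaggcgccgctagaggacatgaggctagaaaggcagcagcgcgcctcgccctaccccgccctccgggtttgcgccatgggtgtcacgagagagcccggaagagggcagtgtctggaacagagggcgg
Amd1, chr10:40302189-40302438, minus strand: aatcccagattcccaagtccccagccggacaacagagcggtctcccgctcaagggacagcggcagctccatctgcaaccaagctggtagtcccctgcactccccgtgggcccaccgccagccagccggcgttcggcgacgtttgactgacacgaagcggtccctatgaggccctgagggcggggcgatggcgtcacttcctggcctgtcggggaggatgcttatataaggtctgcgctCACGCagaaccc
The Odc1 and Oaz1 stretches each hold 3 copies, the Amd1 stretch holds 1 and the Sat1 stretch holds none. RefSeq promoter windows of 300 bases (250 before to 50 after the start) were held for 6 of the 8 members: Odc1, Oaz1, Sat1, Smox, Amd1 and Sms. Sms has 2 windows, so that there were 7 in all. GCGTG was found on either strand in 4 of the 7 windows, against 32.4% of all 32851 promoter windows. These were the windows of Odc1, Oaz1 and Amd1 and 1 of those of Sms, and the windows of Sat1 and Smox held none. TGACG, the core of the cyclic AMP response element, was in 3 of the 7 windows (Odc1, Oaz1 and Amd1), against 20.8% of all windows. The E-box CACGTG (7.15% of all windows) was in 1 of the Sms windows, the AP-1 site TGANTCA (7.81%) was in no window of the 6 members, and no matches of different motifs overlapped. These matches describe letters in the windows and were not tested as binding sites.

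Libraries held 76.2 to 118.5 M counts (M, mega), and the members had 2382 (Sat1) to 45551 (Azin1) counts in a library. Values are CPM, read counts relative to the total counts of the library, after scaling by the trimmed mean of M values (TMM), a difference is a log2 fold change from 1 edgeR quasi-likelihood fit of the 20 libraries, and a gene was called where the p-value, adjusted by the Benjamini-Hochberg method over all 28564 tested genes, was below 0.05. Ahr itself had 21.3 to 27.2 CPM in control and 19.5 to 20.98 CPM in cKO contralateral libraries, and 30.2 to 38.0 and 28.9 to 36.8 CPM ipsilaterally, and neither difference was called (edgeR adjusted p = 0.103 and 1). Contralaterally the groups did not overlap, as for 1.52% of all tested genes, and the difference was -16% (95% interval -23.7% to -7.62%). After injury Ahr was called higher in control mice (1.42-fold, edgeR adjusted p = 4.698e-06) and in cKO mice (1.57-fold, 1.452e-07). Which exons are floxed is not given in the sources used here, so the counts over all exons of a mixed tissue do not measure how far the deletion went. Markers of sensory neurons summed to 11420 to 13820 CPM over the 20 libraries, those of Schwann cells to 3070 to 4453 CPM and those of satellite glia to 1571 to 2025 CPM in all. Skeletal muscle markers ranged from 2.68 to 1591 CPM, with the highest sums in the contralateral library of cKO mouse H100 (1591 CPM), the ipsilateral library of control mouse H65 (608.6 CPM) and the contralateral library of control mouse H62 (330.1 CPM).

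On the injured side the rate-limiting enzyme (Odc1) and the inhibitor of antizyme (Azin1) were higher in both genotypes, together with spermine oxidase (Smox) and the polyamine acetyltransferase (Sat1), while the enzymes that make spermidine and spermine were not called. In control mice 4 of the 8 members were called higher on the injured side (Odc1, Azin1, Smox and Sat1) and 0 lower, where 29.9% of all tested genes passed the threshold, 13.8% upwards and 16.0% downwards. In cKO mice 5 members were called, 4 higher (the same 4) and 1 lower (Oaz1), where 31.3% of all tested genes were called, 16.2% higher and 15.1% lower. The median log2 fold change over the members was 0.16 in control and 0.15 in cKO mice, and over all tested genes it was -0.0047 and -0.0296. Among cell markers, 3 of 10 sensory neuron genes (Scn9a, Scn10a and Isl1) were called lower in control and 1 of 10 (Isl1) in cKO mice, 2 of 6 satellite glia genes (Glul and Kcnj10) were called higher in each genotype, 2 of 6 endothelial genes were called higher in control mice and 1 of 6 fibroblast genes was called lower in cKO mice. Lists with few or no called genes had the following medians. In control mice the median log2 fold change was 0.58 over neutrophil markers (10 of 10 above 0), 0.54 over muscle (5 of 5), 0.45 over macrophages (11 of 12), 0.39 over endothelium (6 of 6) and 0.32 over fibroblasts (6 of 6). In cKO mice it was -3.39 over muscle (0 of 5 above 0), -0.48 over fibroblasts (1 of 6), -0.41 over erythroid cells (0 of 5), -0.12 over neutrophils (2 of 10) and 0.12 over macrophages (7 of 12). Over lymphocytes it was -0.21 in control and -0.28 in cKO mice (1 of 7 above 0 in each). The part of these cells in the members' changes was not tested. Library totals of cKO mice were 76.2 to 87.2 M contralaterally and 87.5 to 118.5 M ipsilaterally, which did not overlap, and those of controls did. In these bulk samples a change in the number of cells of a type and a change in RNA per cell cannot be told apart.

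**Figure D1:**
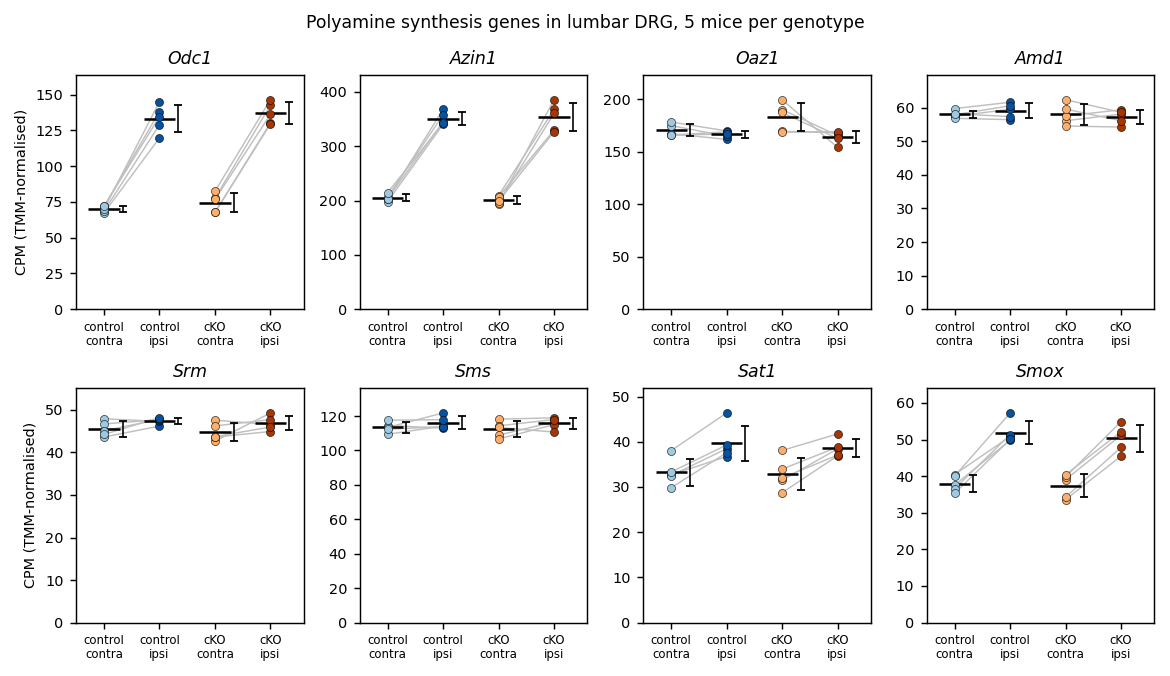
CPM (TMM-normalised, linear axis from 0) of each of the 8 genes in contralateral and ipsilateral DRG of control and cKO mice; each point is 1 library, grey lines join the sides of a mouse, black bars are group means and the bracket beside them is the SD (n = 5). Odc1, Azin1 and Smox are higher in every ipsilateral library than in every contralateral library of the same genotype, while Amd1, Srm and Sms overlap between all 4 groups.

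The ganglion also holds macrophages. Their 12 markers summed to 98.95 to 175 CPM in control contralateral, 113 to 220.2 CPM in control ipsilateral, 98.13 to 259.9 CPM in cKO contralateral and 144.9 to 237.1 CPM in cKO ipsilateral libraries, and 1 of 12 (Mrc1) was called higher after injury in control mice and 0 of 12 in cKO mice. Retnla, the lowest of the 12 by the mean over the 20 libraries, had 0.336 to 3.45 CPM. The part of macrophages in the members' values was not tested.

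Odc1, the gene of ODC, had the largest injury difference of the 8 members in both genotypes. Mice are given in the order H62, H63, H65, H96 and H97 for controls and H61, H64, H95, H99 and H100 for cKO, in every list of 5 values. The control values of Odc1 were 67.3, 71.9, 68.6, 70.0 and 71.9 CPM contralaterally and 119.8, 138, 129, 145 and 135 CPM ipsilaterally. Its cKO values were 77.6, 82.5, 76.8, 67.8 and 67.6 CPM contralaterally and 143, 146.5, 136, 130.3 and 129.6 CPM ipsilaterally. No ipsilateral library reached down to a contralateral library, and the ratio of sides within a mouse was 1.78 to 2.07 in control and 1.77 to 1.92 in cKO mice. Odc1 rose 1.91-fold in control mice (95% interval 1.76 to 2.07, edgeR adjusted p = 4.868e-11) and 1.84-fold in cKO mice (1.70 to 1.99, adjusted p = 9.609e-11).

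Azin1 encodes antizyme inhibitor, an ODC relative with no enzyme activity that binds antizyme and so frees ODC. It had 197.8, 203, 206.7, 203.4 and 214.5 CPM in control contralateral and 340.4, 368, 357.5, 345 and 342 CPM in control ipsilateral libraries. In cKO mice it had 209.1, 194, 195, 206.8 and 199 CPM contralaterally and 368, 386, 360.4, 329.6 and 326.5 CPM ipsilaterally. The sides did not overlap in either genotype. Azin1 rose 1.71-fold in control mice (95% interval 1.61 to 1.81, edgeR adjusted p = 7.582e-12) and 1.76-fold in cKO mice (1.66 to 1.87, adjusted p = 2.745e-12), the smallest adjusted p-values among the members.

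Oaz1, the antizyme that Azin1 binds, did not follow Odc1 and Azin1. In control mice it had 167, 175, 178, 165.8 and 165.6 CPM contralaterally and 161.7, 165, 169.8, 169 and 167 CPM ipsilaterally, a change of -2.28% (95% interval -7.90% to 3.67%, edgeR adjusted p = 0.606). In cKO mice it had 169.4, 199.5, 190.1, 168.5 and 187 CPM contralaterally and 168, 154, 165, 169.1 and 163 CPM ipsilaterally. Contralateral H64, H95 and H100 stood above all other Oaz1 values, H61 lay just above the highest ipsilateral value of its genotype and H99 just below it, so the sides overlapped by 1 contralateral library. In the same contralateral libraries macrophage markers summed to 123.2, 259.9, 189.5, 98.13 and 170.2 CPM. Fibroblast markers summed to 834.7, 1732, 1608, 802.3 and 1338 CPM. Both sums ranked these libraries in the order of Oaz1. No other marker list did so, and neither sum did so ipsilaterally. The part of these cells in the Oaz1 values was not tested. Oaz1 fell by 10.4% in cKO mice (95% interval -15.6% to -4.99%, edgeR adjusted p = 0.00483), and the call was lost without mouse H64, the mouse with both the highest contralateral and the lowest ipsilateral value (log2 fold change -0.10, adjusted p = 0.0518), and in a fit of the cKO libraries alone (-0.14, adjusted p = 0.056). The pseudogene Oaz1-ps, which had 5308 to 8382 counts per library and can share reads with Oaz1, was also called lower in cKO mice (log2 fold change -0.24, adjusted p = 0.00773) and had -0.0216 in control mice, so the Oaz1 level is uncertain by what the counting gave to this copy.

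**Figure D2:**
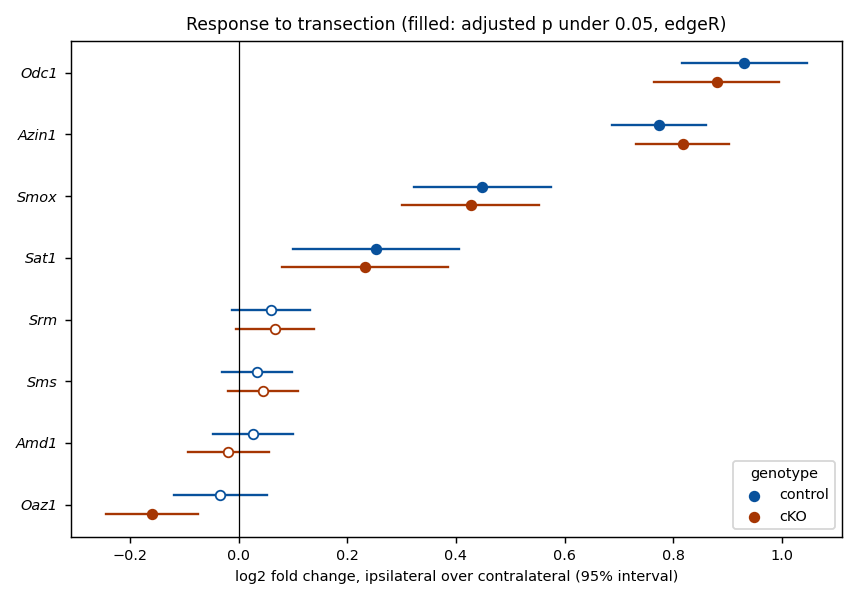
Log2 fold change, ipsilateral over contralateral, of each of the 8 genes in control (blue) and cKO (red) mice, ordered by the control value, with 95% intervals from the edgeR fit. Filled points have an adjusted p under 0.05. Odc1, Azin1, Smox and Sat1 lie above 0 in both genotypes, and Oaz1 lies below 0 in cKO mice.

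The enzymes that build the longer polyamines were flat at this precision. Amd1, which makes the decarboxylated S-adenosylmethionine that donates the aminopropyl group, had 54.3 to 62.4 CPM over the 20 libraries. Srm, spermidine synthase, had 42.7 to 49.3 CPM, and Sms, spermine synthase, had 106.7 to 121.8 CPM. For none of the 3 was the injury difference called in either genotype, and the highest library exceeded the lowest by 1.15, 1.15 and 1.14 times. Amd1 differed between the sides by 1.85% in control mice (95% interval -3.25% to 7.22%) and by -1.29% in cKO mice (-6.23% to 3.91%). Srm differed by 4.23% (-0.843% to 9.56%) and 4.73% (-0.361% to 10.1%), and Sms by 2.40% (-2.06% to 7.07%) and 3.17% (-1.33% to 7.87%), so the intervals of the 3 genes contain no change and no increase above 10.1%. Over 19 alternative settings the log2 fold change of Srm was 0.041 to 0.094 in control and 0.031 to 0.096 in cKO mice, and it was never called. Amd2, a near copy of Amd1 with 102 to 166 counts per library, and the pseudogene Sms-ps, with 1333 to 2081, can share reads with these genes and were not called either.

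Both members that work backwards along the route rose. Smox, spermine oxidase, which turns spermine back into spermidine, had 40.4, 37.6, 36.6, 40.0 and 35.3 CPM in control contralateral and 50.8, 49.8, 51.3, 57.3 and 50.02 CPM in control ipsilateral libraries. In cKO mice it had 39.1, 39.8, 40.4, 33.6 and 34.3 CPM contralaterally and 51.2, 54.9, 52.1, 45.5 and 47.9 CPM ipsilaterally. The sides did not overlap, and Smox rose by 36.5% in control mice (95% interval 25.1% to 48.9%, edgeR adjusted p = 6.51e-06) and by 34.5% in cKO mice (23.3% to 46.7%, adjusted p = 1.161e-05).

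Sat1, the acetyltransferase that marks spermidine and spermine for breakdown or export, rose by less. It had 32.7, 32.5, 33.3, 38.0 and 29.8 CPM in control contralateral and 36.7, 38.5, 39.3, 46.4 and 37.6 CPM in control ipsilateral libraries. In cKO mice it had 31.5, 38.1, 33.9, 28.7 and 32.0 CPM contralaterally and 38.4, 41.7, 38.8, 36.9 and 37.0 CPM ipsilaterally. The sides overlapped, since contralateral H96 and H64 reached into the ipsilateral ranges, but 5 of 5 mice of each genotype were higher on the injured side. Sat1 rose 1.19-fold in control mice (95% interval 1.07 to 1.33, edgeR adjusted p = 0.0118) and 1.18-fold in cKO mice (1.06 to 1.31, adjusted p = 0.0193). In cKO mice the call was lost without H61 (log2 fold change 0.22, adjusted p = 0.0679) and without H95 (0.25, 0.0517), against 0.23 with all mice. With the mouse as a block it was 0.24 (adjusted p = 0.000253).

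In each genotype 3 members (Odc1, Azin1 and Smox) had sides that did not overlap, which held for 23.6% of all tested genes in control and 20.2% in cKO mice. These 3 were called in both genotypes under all 19 alternative settings, including those without H62, H65 or H100, the mice with the highest muscle sums. Gm49077, a transcript on the opposite strand across the start of Azin1, had 745 to 2240 counts per library and rose with log2 fold changes of 0.80 in control and 0.85 in cKO mice (edgeR adjusted p = 1.602e-10 and 4.702e-11). The strand setting of the counting is not given in the sources used here, so reads of a gene and of its opposite-strand partner cannot be told apart.

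To set genes side by side, levels were divided by the kilobases of merged exons of all annotated transcripts. That length can differ from the length of the RNA in use, so the order of close neighbours depends on it. The Oaz1 level and the ratios to it leave out the reads counted for Oaz1-ps (5308 to 8382 per library). In control contralateral libraries the order was Oaz1 (66.6 CPM per kb), Azin1 (32.8), Srm (28.5), Odc1 (20.5), Sms (18.9), Amd1 (16.4), Sat1 (12.0) and Smox (9.75), and no neighbours overlapped over the 5 libraries. On the injured side of control mice Odc1 (39.2 CPM per kb) stood above Srm (29.7), and Sat1 overlapped both Amd1 and Smox. In cKO mice the order was the same as on the matching side of controls, with overlap between Sat1 and Smox on both sides and between Oaz1 and Azin1 on the injured side. The level of Odc1 per kb relative to that of Oaz1 was 0.309 ± 0.0141 contralaterally and 0.602 ± 0.0376 ipsilaterally in control mice, and 0.306 ± 0.0260 and 0.630 ± 0.0522 in cKO mice (SD, n = 5). For Azin1 relative to Oaz1 the ratio was 0.493 ± 0.0233 and 0.862 ± 0.0308 in control mice and 0.452 ± 0.0489 and 0.885 ± 0.0883 in cKO mice. In each genotype the lowest ipsilateral ratio stood above the highest contralateral ratio, for Odc1 (0.557 against 0.326 in control and 0.579 against 0.344 in cKO mice) and for Azin1 (0.835 against 0.530 and 0.797 against 0.505).

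**Figure D3:**
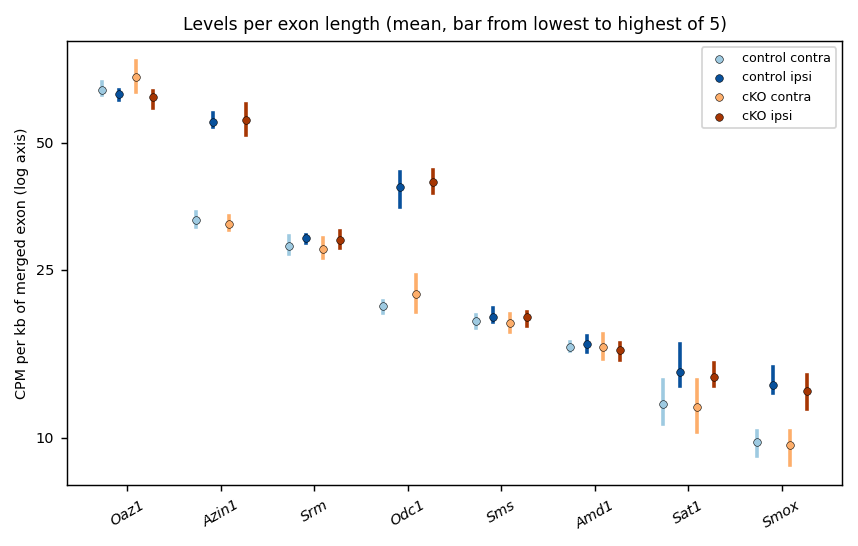
Mean CPM per kilobase of merged exons (log axis) of the 8 genes in the 4 groups, with a bar from the lowest to the highest of 5 libraries. By mean, Oaz1 is highest and Smox lowest in every group, and Odc1 is below Srm on the contralateral side (20.5 against 28.5 in control mice) and above it on the ipsilateral side (39.2 against 29.7).

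The genotypes were then compared on each side. On the contralateral side 0 of 8 members were called between genotypes, where 0.0735% of all tested genes were called by edgeR. DESeq2, which called 3.64% of all tested genes here, and limma called 0 members as well, and 1 member, Oaz1, had an unadjusted p under 0.05. Its log2 fold change, cKO over control, was 0.10 (95% interval 0.018 to 0.19, edgeR adjusted p = 0.201), with overlapping groups. Without mouse H99 it was called (0.13, adjusted p = 0.0327), in a fit in which 11.5% of all genes were called, and without any other mouse it was not. Odc1 had a difference of 0.091 (adjusted p = 0.413), and of 0.0515 to 0.125 over 18 alternative settings. Among the marker lists of other cells 0 genes were called on this side. Their median log2 fold changes, cKO over control, were 1.43 for muscle, 0.81 for fibroblasts, 0.74 for neutrophils, 0.47 for erythroid cells, 0.32 for macrophages and -0.45 for lymphocytes, and the summed levels of each list overlapped between genotypes. The part of these cells in the Oaz1 value was not tested.

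On the ipsilateral side 0 of 8 members were called, where 0.007% of all tested genes were called by edgeR, and 0 members had an unadjusted p under 0.05 or were called by DESeq2 or limma. The log2 fold changes of the members lay between -0.045 and 0.040. For 0 of 8 members did the genotypes separate without overlap on either side, against 1.52% of all tested genes contralaterally and 0.599% ipsilaterally. Of the cell marker lists, 0 genes were called ipsilaterally, with median log2 fold changes of -2.38 for muscle (0 of 5 above 0) and -0.54 for lymphocytes (1 of 7), and of -0.14 to 0.077 for the others.

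The injury response itself was compared between genotypes by the interaction term. It was called for 0 of 8 members, where 0% of all tested genes were called by edgeR, and DESeq2 and limma called 0 members. Only Oaz1 had an unadjusted p under 0.05 among the members, with a response lower by 0.13 on the log2 scale in cKO mice (interaction -0.13, 95% interval -0.25 to -0.0052, edgeR adjusted p = 0.505). Over 18 alternative settings, which include leaving out each mouse, the Oaz1 interaction lay between -0.17 and -0.071. For Odc1 the responses differed by -0.051 (-0.21 to 0.11), for Azin1 by 0.044 (-0.077 to 0.16) and for Smox by -0.022 (-0.20 to 0.16). For Sat1 the interval was -0.24 to 0.20. The Oaz1 call in cKO and not in control mice therefore does not show a difference between genotypes. No cell marker was called for the interaction, but the medians were -3.78 for muscle, -0.78 for fibroblasts, -0.71 for neutrophils, -0.44 for erythroid cells, -0.34 for macrophages, -0.29 for endothelium and -0.085 for Schwann cells, with 0 genes above 0 in each of these lists. Their part in the members' values was not tested.

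The genes around this route were counted from a list of 47, of which 42 were tested. In control mice 11 were called higher and 12 lower on the injured side, against a background over all tested genes of 13.8% higher and 16.0% lower. For cKO mice the counts were 11 and 11, against 16.2% and 15.1%. The 42 genes had a median log2 fold change of -0.0723 and -0.0681, against -0.0047 and -0.0296 over all tested genes. None of the 42 was called for genotype on either side or for the interaction. Of 9 tested genes of arginine and polyamine transport, 4 were called higher and 2 lower in each genotype, with a median of 0.068 in control and -0.0009 in cKO mice. Slc7a3, a cationic amino acid transporter, had 5.83 ± 0.305 CPM contralaterally and 9.87 ± 1.16 CPM ipsilaterally in control mice, and 5.30 ± 1.02 and 10.8 ± 2.08 CPM in cKO mice (SD, n = 5), with log2 fold changes of 0.76 and 1.03. Slc7a1, the main arginine carrier of many cells, rose by 0.43 and 0.53, and Slc3a2, the heavy chain of several amino acid transporters, by 0.40 and 0.43. Slc7a2, another cationic amino acid transporter, had 0.068 and -0.073 and was not called, and Slc18b1, a vesicular polyamine transporter, fell by 0.28 and 0.32 on the log2 scale. These last 2 genes were chosen after their values were seen. Azin2, a relative of Azin1 that also binds antizyme, went from 136.8 ± 4.51 to 187.5 ± 7.82 CPM in control mice and rose by 0.45 and 0.54. Aldh18a1, which starts proline and ornithine synthesis from glutamate, rose by 0.33 and 0.41.

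Among the called genes that fell, Ass1, an enzyme of arginine resynthesis from citrulline, went from 95.6 ± 7.44 to 74.6 ± 2.35 CPM in control mice (log2 fold change -0.36) and fell by 0.23 on the log2 scale in cKO mice. Paox, the oxidase of acetylated polyamines, fell by 0.31 in control mice and had -0.17 in cKO mice (edgeR adjusted p = 0.056, not called). Sat2, a relative of Sat1, fell by 0.30 and 0.34. Paox and Sat2 thus went the opposite way from Smox and Sat1 in control mice.

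**Figure D4:**
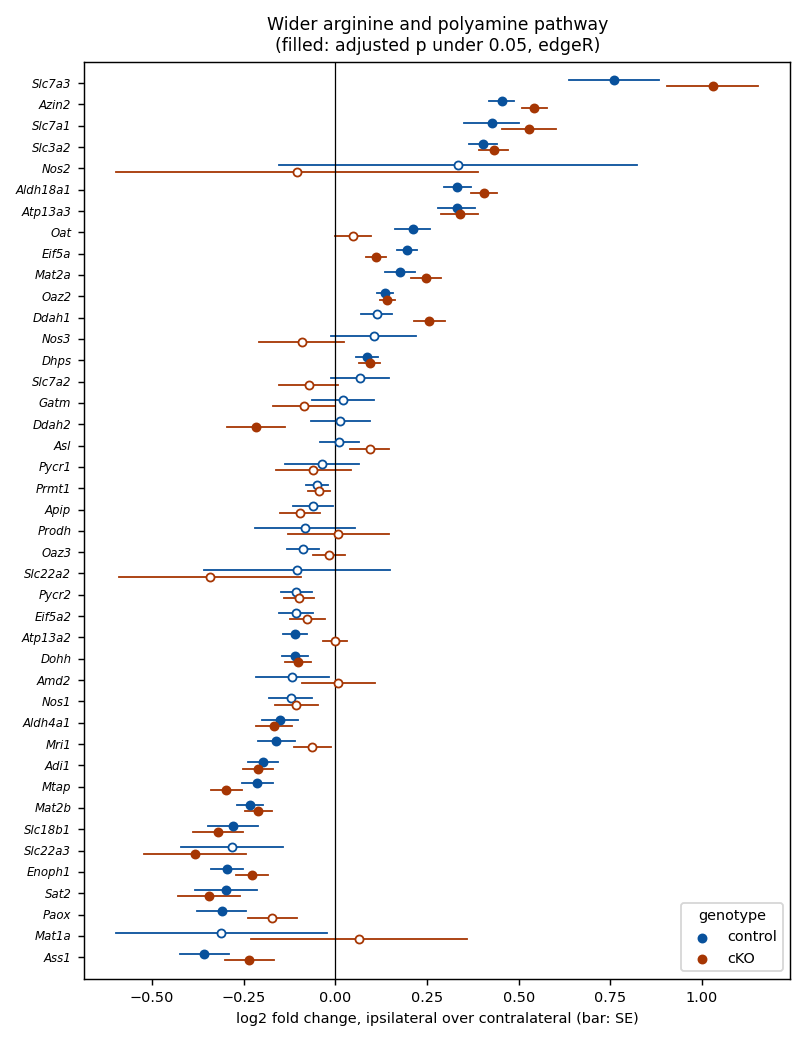
Log2 fold change, ipsilateral over contralateral, of the 42 tested genes of the wider pathway in control (blue) and cKO (red) mice, with bars of 1 SE; filled points have an adjusted p under 0.05 in edgeR. Slc7a3 is highest in both genotypes (0.76 and 1.03), and similar numbers of genes are called higher (11 and 11) and lower (12 and 11).

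Genes with the most similar pattern over the 20 libraries were sought among tested genes averaging 5 CPM or more, by Pearson's r of log2 CPM. For Azin1 these were Mmp16 (r = 0.997), Srxn1 (0.997) and Rgs20 (0.996) among 13109 genes. The 20 libraries share the division into sides, and these values are descriptions with no test.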

How the data were processed

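RNA was measured in 20 DRG libraries of 10 mice (Illumina stranded mRNA, paired 150 bp reads, per the labels' protocols). The authors' deposited table gives exonic read counts as whole numbers, not normalized, and the total was 76.2 to 118.5 M (mega) per library. Read counts carry no molecular identifiers, so low counts limit precision, and p-values measure the spread between mice. Dividing the CPM by the FPKM values deposited by the authors gave lengths of 1.02 (Oaz1) to 8.84 (Smox) times the merged exons. For Sms the length was 48433 bases against 6010 of merged exons. Whether these lengths are gene spans with introns included was not checked. FPKM therefore served within genes only, as an alternative. The submitters' processing notes name HISAT2, Picard, mm10 and mm39 with no role; the counting program, annotation and strand setting are not given in the sources used here. Gene symbols and exon lengths came from GENCODE release M21 (GRCm38) by Ensembl identifier, and 51487 of 78258 identifiers had a symbol, with 98.1% of the counts.

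The tests used edgeR 4.0.16 under R 4.3.3 (TMM, filterByExpr with minimum count 10 and minimum total 15, robust quasi-likelihood F-test, 4 group means in 1 fit of 20 libraries, Benjamini-Hochberg over tested genes). Standard errors are the log2 fold change over the square root of F, and 95% intervals use its degrees of freedom. The fitting code was tested on simulated data. Alternatives were DESeq2 1.42.0, RLE scaling, no filter, a filter at a mean of 1 CPM, limma 3.58.1 on log2 FPKM (pseudocount 1, then 0.1), the mouse as a block, only the libraries compared, a covariate for low or high mouse numbers, and leaving out each mouse. The sides are paired because they come from the same animal; over 19360 genes, the deviations of both sides from their group means correlated with a median r of 0.308 (-0.160 to 0.668), above 0.1 in 8 of 10 mice. Named genes were the members, Ahr, Amd2, the called genes of the wider list with the 5 highest and 3 lowest control values, and the 3 genes most like Azin1. Opposite-strand transcripts and pseudogenes were added after their values were seen. One title shortens a mouse number, and the library name was used. Part of the member list is not reported here. The members and lists were chosen with earlier results of these data known.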

Additional observations from a re-analysis of the deposited data

Results flagged for a closer look

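Each gene in each group of 5 libraries was checked for a library far from the others, by the gap to its nearest neighbour over the whole range (Dixon's ratio, critical value 0.71). Of 32 groups examined 2 exceeded it, where chance gives about 1.6. Both were the ipsilateral library of control mouse H96, which was the highest for Sat1 (46.4 CPM, ratio 0.735) and for Smox (57.3 CPM, ratio 0.796). Among marker sums, this library was the highest of its group for neutrophils (266 CPM), macrophages (220.2 CPM), fibroblasts (1350 CPM) and endothelium (154.4 CPM). The same held for erythroid cells, lymphocytes, Schwann cells and satellite glia, and not for sensory neurons or muscle. The contralateral library of H96 was also the highest of its group for Sat1 (38.0 CPM), and among marker sums for macrophages (175 CPM) and lymphocytes alone. The part of these cells in the Sat1 and Smox values was not tested. Without this mouse Sat1 and Smox were still called higher after injury in control mice.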

How the results depend on the processing

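The counts of called members moved little with the processing: 4 under each alternative in control mice and 4 or 5 in cKO mice for injury, and 0 under each alternative for the interaction and for genotype ipsilaterally. For genotype on the contralateral side the count was 0 to 1 when each mouse was left out, the 1 being Oaz1 without H99. With the mouse as replicate block 4, 5 and 0 members were called for injury in control mice, injury in cKO mice and the interaction, as without it. Among the single-gene values reported, those that changed sign did so when a mouse was left out, with ranges of -0.0357 to 0.0031 for the Amd1 response in cKO mice, and of -0.0504 to 0.0082 (Sat1) and -0.0011 to 0.0777 (Azin1) for the interaction; none was called, and the cause was not tested. The calls of Sat1 in cKO mice were lost with FPKM (log2 fold changes 0.19 and 0.21, adjusted p = 0.0703 and 0.0689). With FPKM and a pseudocount of 1 the Smox response shrank to 0.24 in control and 0.22 in cKO mice on the log2 scale, and it was still called. Over all genes, the 21 contralateral genotype calls became 1041 with DESeq2, 50 without a filter, 45 with the filter at 1 CPM, 6 and 7 with FPKM, 2 with only the libraries compared, and 4 to 3326 when a mouse was left out, and the 0 interaction calls became 11 with DESeq2 and 43 without H99. The members had at least 2382 counts in each library, so depth limits their values little.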

Other observations

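Genes that supply S-adenosylmethionine and recycle the methylthio by-product of spermidine and spermine synthesis were called lower more often than higher after injury. Of 8 tested, 5 were called lower and 1 higher in control mice, and 4 lower and 1 higher in cKO mice, with a median log2 fold change of -0.21 and -0.15, against -0.0047 and -0.0296 over all tested genes. Of all tested genes, 16.0% were called lower and 13.8% higher in control mice, and 15.1% and 16.2% in cKO mice. Mat2a, the catalytic subunit that makes S-adenosylmethionine, rose by 0.18 and 0.25, while Mat2b, its regulatory partner, fell by 0.23 and 0.21. Mtap, which cleaves the by-product methylthioadenosine, fell by 0.21 and 0.30, Enoph1 by 0.30 and 0.23 and Adi1 by 0.20 and 0.21, all on the log2 scale in control and cKO mice. These genes were named after their values were seen.

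Spermidine also donates the group from which hypusine is made on the translation factor encoded by Eif5a. Of 4 hypusination genes tested, 2 were called higher and 1 lower in each genotype, beside the same shares of all tested genes. Eif5a rose by 0.20 (control) and 0.11 (cKO) on the log2 scale, and Dhps, which transfers the group, rose by 0.086 and 0.093. Dohh, which completes hypusine by hydroxylation, fell by 0.11 and 0.10, and Eif5a2, a relative of Eif5a, had -0.11 and -0.076 and was not called. The median over the 4 genes was -0.011 in control and 0.0085 in cKO mice.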
